A study of Sus scrofa with 74 samples.

Results

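The glucocorticoid receptor, NR3C1, and 9 genes that supply its ligand or respond to it were followed through the skeletal muscle of 74 pigs. The genes were picked by name, and every probe set that the array annotation gives to a single one of them was taken. This gave 20 probe sets of 10 genes, out of 23999 probe sets that are not controls and 6790 named genes. Of the 20, 16 were in the brighter part of the array that was tested (11999 probe sets), and each gene had at least 1 there. The dimmer 4 were those of NR3C1 (2), KLF9 (1) and GLUL (1). For a gene with several probe sets, the one with the highest median stands for the gene.

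The animals were F2 pigs of a Duroc by Pietrain cross, grown to about 110 kg, and 1 Affymetrix Porcine Genome Array was run on the M. longissimus dorsi of each. They form a single group with no treatment and no repeat arrays, they include full sibs, and by the study's methods all were free of the ryanodine receptor mutation behind malignant hyperthermia. The sample labels carry numbers that leave a gap, from 1 to 33 for 24 animals and from 60 to 114 for 50. The labels do not say what these numbers mean, so relations are given with the mean of each block removed, and for every pair of the 10 that passed and some further relations also within each block. Of the 353 relations with listed genes that passed, 351 had the same sign in both blocks, as had all 32 that passed with a list score or array measure and all 40 with the nearest and lowest genes given for the 10 genes. These relations were picked by their r over the same animals, so their agreement in sign is no separate test. Of all 45 pairs of the 10 genes, 27 had the same sign in both blocks. Cortisol and the handling of each animal before slaughter were not analysed here.

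Cortisol, which the adrenal gland releases under stress and in a daily rhythm, crosses into the cell and binds a receptor that HSP90 and its co-chaperones hold ready. The loaded receptor moves to the nucleus and switches genes on or off there. In muscle it is known for braking protein synthesis, raising protein breakdown and sparing glucose. HSD11B1 makes active cortisol from inert cortisone inside the cell, and FKBP5, one of the strongest targets, binds the receptor complex and lowers its affinity for the hormone. TSC22D3 (GILZ), KLF9, GLUL, SGK1, DDIT4, CEBPD and CEBPB are further genes that glucocorticoids raise in many tissues. Several of them also answer to other signals, among them insulin, oxygen, osmotic stress and inflammation.

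All levels are log2 of the array intensity after each array was scaled to the same mean. A level can be compared between animals but not between genes, since probe sets differ in brightness. Before scaling, the arrays ran from 50.3 to 122.9 intensity units in the 24 animals and from 84.7 to 183.2 in the 50. The arrays of the animals numbered 23 and 26 were the least like the others, with a median r with the other arrays of 0.847 and 0.858 against up to 0.941. Next was the array of animal 114, at 0.875. No pair of arrays was a copy of another, the largest r being 0.971. Of 14 skeletal muscle marker genes, 10 had a probe set among the brighter part, and ACTA1, MB, MYH1 and MYH4 had none there.

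NR3C1 was measured by 2 bright probe sets. The brighter had a lowest, median and highest level of 7.38, 8.65 and 9.23 in the 24 animals and of 7.62, 8.95 and 9.78 in the 50. The blocks overlapped over most of their range, and the highest animal lay 5.29-fold above the lowest. The mean was 8.54 ± 0.48 (SD, n = 24) against 8.93 ± 0.45 (SD, n = 50), a difference of -0.39 ± 0.11 (SE) on the log2 scale (limma, adjusted p = 0.002). The other bright probe set did not show this difference, at 0.11 (adjusted p = 0.42), although the pair correlated over animals at r = 0.669. The receptor's level difference between blocks therefore rests on 1 of its 2 bright probe sets.

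HSD11B1, the enzyme that regenerates cortisol, ran from 8.01 over a median of 9.05 to 11.30 in the 24 animals and from 7.89 over 9.18 to 11.89 in the 50. A single animal in each block stood far above the rest, and the span of 16-fold was the widest among the 10 probe sets that stand for the genes. The means of 9.05 ± 0.71 and 9.19 ± 0.57 (SD) did not differ at this spread (difference -0.13 ± 0.15 (SE), adjusted p = 0.45). The other genes of ligand supply, HSD11B2, H6PD, ABCB1, AKR1D1 and SRD5A1, and the related mineralocorticoid receptor NR3C2 had no probe set among the brighter part.

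FKBP5, the feedback target, ran from 8.57 over a median of 10.01 to 11.40 in the 24 animals and from 9.41 over 10.43 to 11.96 in the 50. It spread 10.5-fold over the animals, and its SD within blocks was larger than that of 90.3% of the tested probe sets. Its mean was 10.07 ± 0.72 against 10.49 ± 0.63 (SD), a difference of -0.42 ± 0.16 (SE, adjusted p = 0.02). The second FKBP5 probe set correlated with the first at r = 0.831 and differed in the same direction, by -0.90 (adjusted p = 0.00024).

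TSC22D3, a direct target that curbs inflammatory transcription, was the opposite case. It ran from 12.11 over 12.71 to 13.09 in the 24 animals and from 12.49 over 12.94 to 13.79 in the 50, a span of only 3.2-fold. Its SD within blocks was larger than that of 21.5% of the tested probe sets. The difference between blocks was -0.29 ± 0.07 (SE, adjusted p = 0.00041), and the gene's dimmer probe set, which correlated with the first at r = 0.553, gave -0.03 (adjusted p = 0.92).

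KLF9, a zinc finger repressor that the receptor induces directly, ran from 10.59 over 11.77 to 12.93 in the 24 animals and from 11.15 over 12.15 to 13.15 in the 50. It spread 5.89-fold. The blocks differed by -0.33 ± 0.12 (SE, adjusted p = 0.015).

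GLUL, which makes glutamine and is a long known glucocorticoid target in muscle, ran from 12.94 over 13.68 to 14.53 and from 13.37 over 14.01 to 14.58. Its span was 3.11-fold and the difference between blocks -0.31 ± 0.09 (SE, adjusted p = 0.0022). The other bright GLUL probe set, with r = 0.713 to the first, gave 0.14 (adjusted p = 0.45).

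DDIT4 (REDD1), an inhibitor of mTORC1 and so of protein synthesis, ran from 11.43 over 13.28 to 14.14 and from 10.86 over 13.11 to 14.46. SGK1, a kinase that regulates ion transport and is close in sequence to AKT, ran from 8.65 over 9.74 to 10.99 and from 7.92 over 9.73 to 11.61. Both spread widely, 12.1-fold for DDIT4 and 12.9-fold for SGK1. Neither passed between blocks, with differences of 0.08 ± 0.18 (SE, adjusted p = 0.70) and 0.01 ± 0.15 (SE, adjusted p = 0.94).

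The CCAAT/enhancer binding proteins CEBPD and CEBPB are transcription factors of the acute phase and of adipocyte formation. CEBPD ran from 11.01 over 11.75 to 13.39 and from 11.00 over 11.78 to 13.57, with a few animals of each block well above the rest. CEBPB ran from 13.67 over 14.26 to 14.98 and from 13.61 over 14.27 to 14.81, the narrowest span of the 10 at 2.59-fold. The differences were 0.07 ± 0.13 (SE, adjusted p = 0.68) for CEBPD and 0.05 ± 0.08 (SE, adjusted p = 0.60) for CEBPB. The faintest of the bright CEBPD probe sets gave -0.88 (adjusted p = 5e-05), unlike the gene's other 2.

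**Figure D1:**
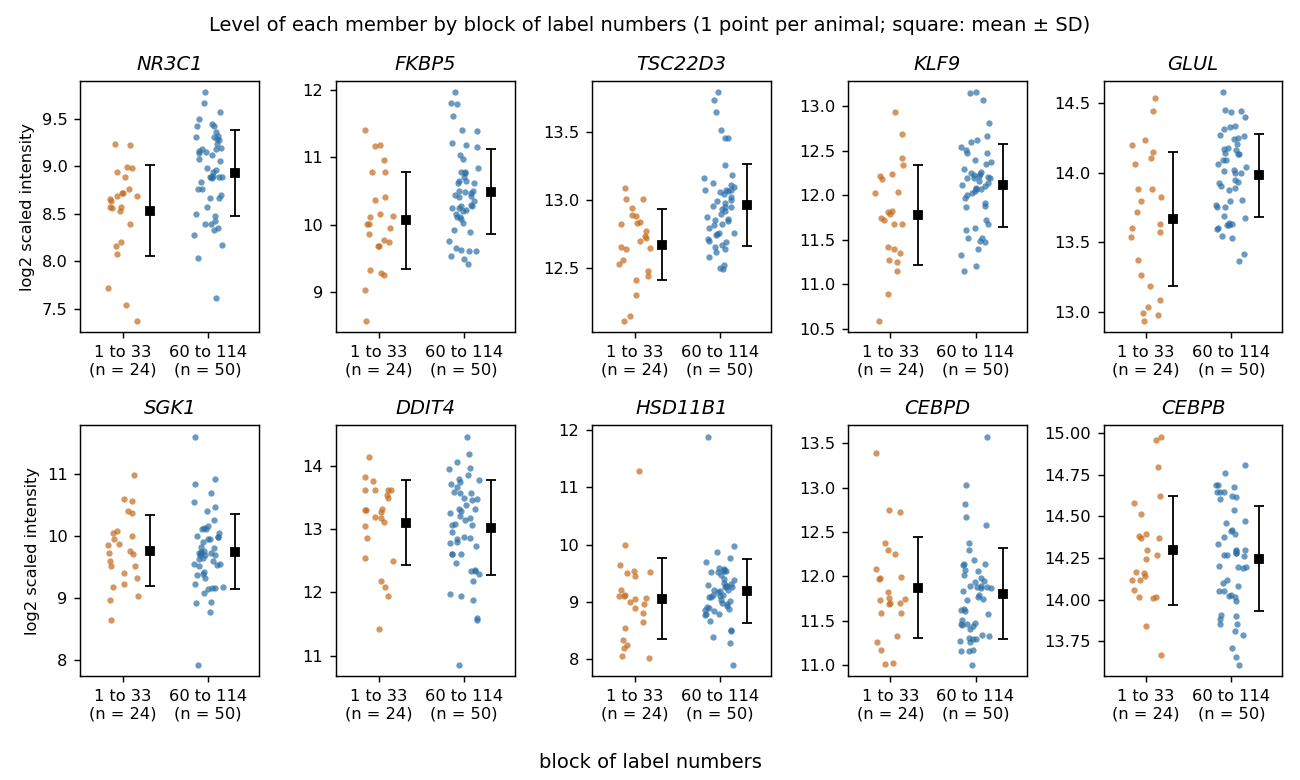
Each panel shows 1 gene, each point 1 animal and each square a block's mean with its SD, on the log2 scale of scaled intensity, with the blocks of label numbers side by side. NR3C1, FKBP5, TSC22D3, KLF9 and GLUL sat lower in the 24 animals, while the single high animals of HSD11B1, at 11.30 and 11.89, stand apart in both blocks. Other bright probe sets of NR3C1, TSC22D3 and GLUL, not shown, did not pass between blocks.

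Of the 10 genes, by the probe sets that stand for them, 5 were lower in the 24 animals, 0 were higher and 5 did not pass. Among the 5 that were lower, NR3C1, TSC22D3 and GLUL each had another bright probe set that did not pass. The second FKBP5 probe set passed as lower, and KLF9 had no other bright one. Over all tested probe sets, 36.6% were lower and 24.8% higher in those animals, and the median difference was -0.07. With the intensities as deposited, without scaling, the median of all probe sets was -0.65 and all 10 genes passed as lower. With quantile normalization the median was 0.01 and the same number of genes, 5, passed as lower. A block difference was therefore common among all probe sets, and the blocks also differed in array level before scaling.

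The genes did not move as a single unit. Among the 45 pairs, with block means removed, r ran from -0.31 to 0.592 with a median of 0.0893. It was positive in 29 and negative in 16, and had the same sign in both blocks in 27. Each gene was also fitted with limma against all tested probe sets, with the block as a covariate and the adjustment over all of them. In these fits 4 pairs passed from both sides, 3 from 1 side and 38 from neither. Of all tested probe sets, 8.09% passed in the fit on FKBP5, 22.4% in that on NR3C1 and 0.00834% in that on TSC22D3. In the fits on the other genes together the share was 19.3%. A pass was thus common among all probe sets in several of these fits.

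**Figure D2:**
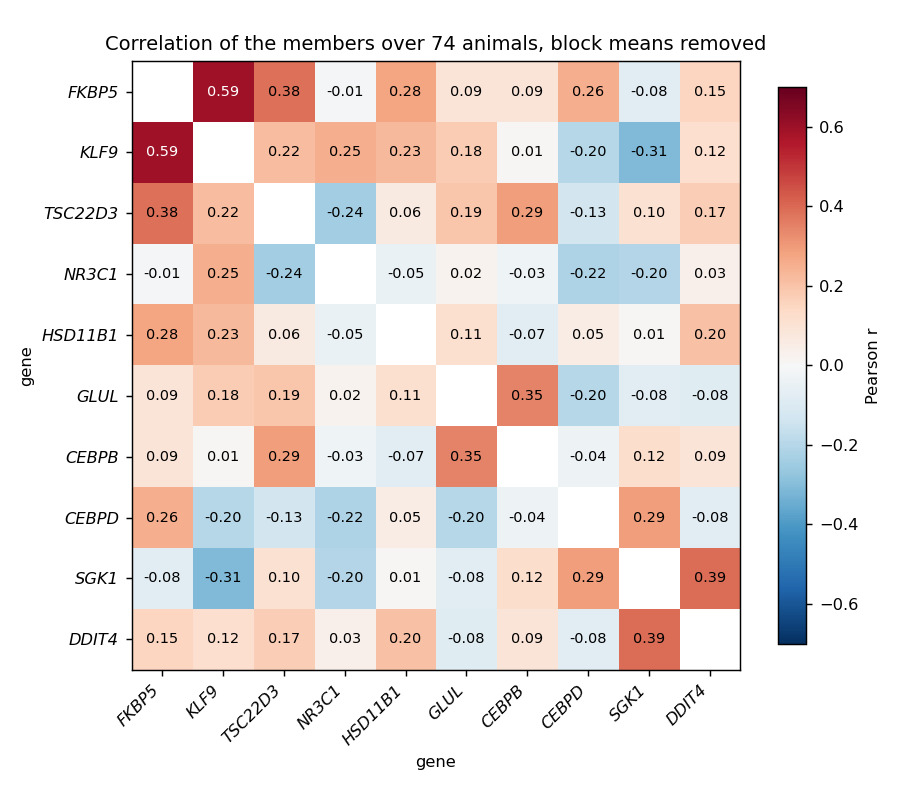
The grid gives Pearson r for every pair of the 10 genes over the 74 animals, with block means removed (red positive, blue negative). The highest values are those of FKBP5 with KLF9 (0.592), SGK1 with DDIT4 (0.393) and FKBP5 with TSC22D3 (0.383), and the lowest is that of KLF9 with SGK1 (-0.31).

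FKBP5 and KLF9 were the closest pair. Their r was 0.592 and rho 0.568 (permutation p = 1e-05 for each, the smallest that 100000 permutations can give). It was 0.606 in the 24 animals and 0.583 in the 50, and 0.627 with the blocks pooled. Without the 2 animals farthest from the FKBP5 median r was 0.556. The adjusted p was 4.8e-05 in the fit on FKBP5, where 4.48% of the probe sets passed with a positive and 3.61% with a negative slope. It was 8.9e-07 in the fit on KLF9, where the shares were 22.1% and 23.3%. The second FKBP5 probe set gave r = 0.485 with KLF9. Array level before scaling moved with both genes, at r = 0.314 for FKBP5 and 0.452 for KLF9, and with it and the ratio of 3' to 5' control signals as covariates the pair's r was 0.571.

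FKBP5 and TSC22D3 followed at r = 0.383 (permutation p = 0.00077) and rho = 0.353 (permutation p = 0.0021). The relation was 0.63 in the 24 animals and 0.273 in the 50, 0.455 pooled, and 0.37 without the 2 farthest animals. It passed in the fit on FKBP5 (adjusted p = 0.024) and not in that on TSC22D3 (adjusted p = 0.12), where only 0.00834% of all probe sets passed with a positive slope and 0.0% with a negative one. The second FKBP5 probe set gave 0.39. KLF9 and TSC22D3 had r = 0.216 and passed in neither fit.

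SGK1 and DDIT4 had r = 0.393 (permutation p = 0.00064) and rho = 0.367 (permutation p = 0.0014). It was 0.558 in the 24 animals, 0.328 in the 50, 0.393 pooled, and 0.341 without the 2 animals farthest from the SGK1 median. The adjusted p was 0.0058 in the fit on SGK1 and 0.027 in that on DDIT4. The shares of all probe sets that passed with a positive and a negative slope were 9.72% and 13.5% for SGK1, and 1.08% and 1.56% for DDIT4.

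KLF9 and SGK1 ran against each other, at r = -0.31 (permutation p = 0.0069) and rho = -0.305 (permutation p = 0.0088). The value was -0.234 in the 24 animals, -0.354 in the 50 and -0.299 pooled, with adjusted p of 0.018 and 0.034. Without the 2 animals farthest from the KLF9 median it was -0.263 (adjusted p = 0.064), and without animals 23 and 26 it was -0.259 (adjusted p = 0.063), so that the pair no longer passed. It was -0.0413 (adjusted p = 0.78) with the intensities as deposited.

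SGK1 and CEBPD had r = 0.292 (permutation p = 0.012) and rho = 0.284 (permutation p = 0.015), with 0.45 in the 24 animals, 0.217 in the 50 and 0.292 pooled. Without the 2 animals farthest from the SGK1 median r was 0.405. The adjusted p was 0.048 in the fit on SGK1 and 0.046 in that on CEBPD, where 11.9% of all probe sets passed with a positive and 12.2% with a negative slope. Without the 2 animals farthest from the CEBPD median r was 0.214 (adjusted p = 0.21), and without animals 23 and 26 it was 0.207 (adjusted p = 0.23).

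CEBPB passed with GLUL and TSC22D3 in its own fit and in neither of theirs. With GLUL r was 0.348 (permutation p = 0.0026) and rho 0.386 (permutation p = 0.00074), with 0.302 in the 24 animals, 0.4 in the 50, 0.294 pooled and 0.412 without the 2 animals farthest from the GLUL median. The adjusted p was 0.012 in the fit on CEBPB and 0.053 in that on GLUL. With array level before scaling and the ratio of 3' to 5' control signals as covariates r was 0.321 (adjusted p = 0.061), and the pair no longer passed. With TSC22D3 r was 0.293 (permutation p = 0.012) and rho 0.233 (permutation p = 0.047), with 0.194 and 0.336 in the blocks, 0.232 pooled, and 0.237 without the 2 animals farthest from the TSC22D3 median. The adjusted p was 0.04 in the fit on CEBPB and 0.26 in that on TSC22D3. This pair missed the threshold under 7 of 12 alternatives, among them no block term (adjusted p = 0.13), ranks (0.11) and the same covariates (0.059). Of all probe sets 15.2% passed with a positive and 19.5% with a negative slope in the fit on CEBPB, and 2.0% and 2.97% in that on GLUL.

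**Figure D3:**
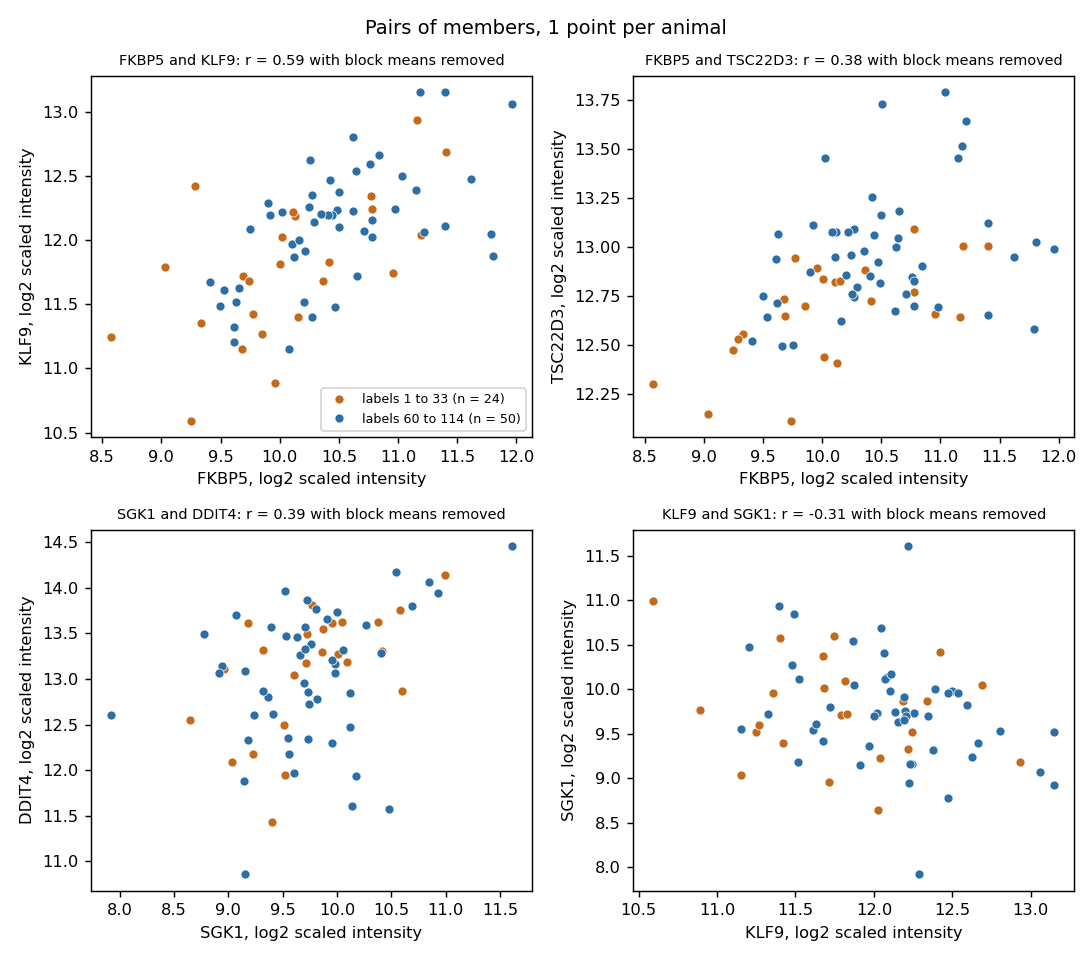
Each point is 1 animal, coloured by block, with the log2 level of 1 gene on each axis. FKBP5 and KLF9 rise together in both blocks (r = 0.606 and 0.583), FKBP5 and TSC22D3 and also SGK1 and DDIT4 more loosely, and KLF9 and SGK1 run against each other (r = -0.31 over all 74).

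The receptor's own level passed with none of the other 9 in its limma fit, in which 12.1% of all probe sets passed with a positive and 10.2% with a negative slope. Its r was between -0.241 with TSC22D3 (permutation p = 0.038, adjusted p = 0.12) and 0.254 with KLF9 (permutation p = 0.031, adjusted p = 0.092), and was -0.00919 with FKBP5. These 2 were the pairs of NR3C1 with a permutation p under 0.05. By rank, rho was -0.251 with TSC22D3 (permutation p = 0.033) but 0.11 with KLF9 (permutation p = 0.36). With KLF9 r was 0.525 in the 24 animals and 0.0915 in the 50. In the fit on NR3C1 with the 24 animals alone 26.2% of all probe sets passed in either direction, and with the 50 alone 0.0333%. Without the 2 animals farthest from the NR3C1 median the share was 11.3%.

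Whether any relation among the genes differed between the blocks was tested by an interaction term in limma. None of the 90 slopes passed, and 12 had an unadjusted p under 0.05, the lowest adjusted p being 0.073. Over all probe sets in these fits 0.742% passed, or 890 slopes. Of these, 438 were in the fit on NR3C1 and 428 in that on GLUL, and no other fit had more than 10. The pair with the lowest adjusted p was GLUL and SGK1, with r = -0.51 in the 24 animals and 0.223 in the 50.

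The tested probe sets closest to each gene, out of those with a single name, add to this picture. FKBP5 was nearest to SMPDL3A, a phosphodiesterase (r = 0.671, adjusted p = 3.5e-07), then to UTP11 (0.638) and KLF9 (0.592), and ran most strongly against JARID2 (-0.584). KLF9 was thus the third of all named probe sets for FKBP5. Apart from its own, TSC22D3 passed with a single tested probe set, that of FOXO1 (r = 0.534, rho = 0.455, adjusted p = 0.013), a transcription factor of fasting and of muscle protein breakdown. Its r with FOXO1 was 0.456 in the 24 animals and 0.569 in the 50. Without the 2 animals farthest from the TSC22D3 median it was 0.452, and 0.0% of all probe sets passed in the fit on TSC22D3. The share was also 0.0% with ranks and in each block alone, so that FOXO1 no longer passed. NAP1L4 and CRY2, next in line, did not pass (adjusted p = 0.054 for each), nor did RNASEH2B at the other end (r = -0.465).

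NR3C1 was nearest to NAA50 (r = 0.592), PEX13 (0.567) and MAPK6 (0.553), and lowest with CD74 (-0.581), the invariant chain of antigen presentation. KLF9 had RBM48 (0.757), PPTC7 (0.735) and DLD (0.729), the last a subunit shared by the mitochondrial dehydrogenase complexes, against MYADM (-0.665). GLUL had ZFAND5 (0.558), TMEM203 (0.529) and POLR2B (0.522), against ATP6V1A (-0.527).

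SGK1 was nearest to RHOB (0.575), MYD88 (0.564) and MYH9 (0.552), against FXR1 (-0.603). DDIT4 had TMEM242 (0.517), FBXO21 (0.503) and JAGN1 (0.496, with 0.0502 in the 24 animals and 0.669 in the 50), but its strongest relation was negative, with ANKRD1 (-0.708, adjusted p = 4.3e-09), a stretch and stress responsive protein of the sarcomere. That value was -0.589 in the 24 animals and -0.766 in the 50.

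HSD11B1 was nearest to APCDD1 (0.506, adjusted p = 0.018), and the next, the adipocyte hormone ADIPOQ (0.473, adjusted p = 0.054) and MGST1 (0.444, adjusted p = 0.064), did not pass. It ran lowest with ACTR3B (-0.543, rho = -0.445, adjusted p = 0.0052). Without the 2 animals farthest from the HSD11B1 median r was -0.391 with ACTR3B and 0.599 with APCDD1. In the fit on HSD11B1 0.00833% of all probe sets passed in each direction. CEBPD was nearest to LITAF (0.749), TIMP1 (0.718) and STAT3 (0.658), genes of the inflammatory response, against STRADB (-0.719). Their rho was 0.587, 0.567, 0.49 and -0.592. Without the 2 animals farthest from the CEBPD median r was 0.67, 0.609, 0.521 and -0.66. Animals 23, 26 and 114, whose arrays were least like the others, had high CEBPD levels of 12.75, 13.39 and 13.03. The part of these arrays in the relations of CEBPD with these genes was not tested. CEBPB had ETS2 (0.756), MYOZ1 (0.693) and ATP2A1 (0.688), the last a calcium pump of fast fibres, against the fibroblast protease FAP (-0.76).

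Other textbook targets of the receptor passed in different numbers with different genes of the 10. Of 36 listed, 21 genes with 31 probe sets were tested, and those said to rise or fall with a gene here and in the lists that follow had an adjusted p under 0.05 in its limma fit. In the fit on FKBP5, 4 of the 31 rose and 0 fell (12.9% and 0.0%, beside 4.48% and 3.61% of all probe sets). They were both probe sets of FBXO32 (atrogin-1, a ubiquitin ligase of muscle atrophy, r = 0.449 and 0.385), FOXO1 (0.401) and SESN1 (0.382), a stress-induced inhibitor of mTORC1. The median r of the 31 was 0.109, beside -0.00473 over all tested probe sets.

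SGK1 rose with 10 of the 31 and fell with 0 (32.3% and 0.0%, beside 9.72% and 13.5% of all probe sets). The largest were RHOB (0.575), NFKBIA (0.50), which holds NF-kappaB back, TXNIP (0.477), DUSP1 (0.445), a MAP kinase phosphatase, and ANGPTL4 (0.41). The median r was 0.147, beside 0.0226 over all. The mean z score of the 21 genes passed with SGK1 (r = 0.529, rho = 0.529, adjusted p = 0.00022), with 0.476 in the 24 animals and 0.549 in the 50, beside 26.9% of all probe sets. It also passed with CEBPD (r = 0.425, rho = 0.402, adjusted p = 0.0024) and DDIT4 (r = 0.343, rho = 0.413, adjusted p = 0.015), and all 3 kept their sign after quantile normalization and with the intensities as deposited. It did not pass with the other 7, among them FKBP5 (r = 0.233, adjusted p = 0.11), KLF9 (-0.202, adjusted p = 0.18) and the receptor (-0.0928, adjusted p = 0.57). DDIT4 rose with 2, SESN1 (0.415) and TXNIP (0.39), and fell with 0 (6.45% and 0.0%, beside 1.08% and 1.56% of all).

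KLF9 was split, with 7 of the 31 rising and 7 falling, close to its shares over all probe sets. SESN1 (0.494), PDK4 (0.424), which spares glucose, and FBXO32 (0.301) rose with it, while TXNIP (-0.431, with -0.706 and -0.218 in the blocks), RHOB (-0.408), PER1 (-0.401) and DUSP1 (-0.365) fell. With the intensities as deposited, 5 of the 7 falling probe sets had a positive r instead. CEBPD rose with 11, among them RHOB (0.526), MAOA (0.446) and CDKN1A (0.415), and fell with both probe sets of MSTN, myostatin (-0.37 and -0.351), which lay at -0.763 and -0.742 in the 24 animals and at -0.0946 and -0.116 in the 50. For CEBPD the shares of the list were 35.5% and 6.45%, beside 11.9% and 12.2% of all probe sets. CEBPB rose with 7, among them FOXO1 (0.484), PER1 (0.458), KLF15 (0.453) and LPIN1 (0.413), and fell with ANXA1 (-0.567). These were 22.6% and 3.23% of the list, beside 15.2% and 19.5% of all probe sets.

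NR3C1 rose with 4 of the 31 and fell with 2, or 12.9% and 6.45%, which was not far from the 12.1% and 10.2% of all probe sets. The 4 were those of PDK4 (0.451 and 0.384) and MSTN (0.375 and 0.294), and the 2 were MAOA (-0.321, with -0.619 in the 24 animals and -0.0877 in the 50) and CRISPLD2 (-0.298, with -0.547 and -0.135), 1 of which was positive with the intensities as deposited. GLUL rose with LPIN1 (0.492) and KLF15 (0.423) and fell with RHOB (-0.359, with -0.602 and -0.105 in the blocks). The shares were 6.45% and 3.23% of the list, beside 2.0% and 2.97% of all. HSD11B1 passed with none of the 31.

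The chaperones that hold the receptor (14 genes, 21 probe sets tested) had their highest counts in the fits on CEBPB, SGK1 and KLF9. Many of all probe sets passed in these fits too, so each count is set beside that share. In the fit on KLF9 7 rose and 0 fell, or 33.3% and 0.0% beside 22.1% and 23.3% of all probe sets. The 7 were led by PPID (0.534), HSP90AA1 (0.50) and HSPA4 (0.482). In the fit on SGK1 0 rose and 8 fell, or 0.0% and 38.1% beside 9.72% and 13.5% of all. The 8 were led by PPID (-0.56, with -0.28 in the 24 animals and -0.686 in the 50), ST13 (-0.471) and HSPA4 (-0.429). Among the 8, a probe set of HSP90AA1 (-0.315) had r = 0.231 in the 24 animals and -0.488 in the 50. In the fit on CEBPB 5 rose and 4 fell, or 23.8% and 19.0% beside 15.2% and 19.5% of all. The 4 that fell had a positive r with the intensities as deposited. FKBP5 rose with 2, PPID (0.375) and HSP90AA1 (0.337), and DDIT4 fell with 2, DNAJA1 (-0.527) and HSPA4 (-0.507, with -0.19 and -0.621 in the blocks). Each was 9.52% of the list, beside 4.48% of all with a positive slope for FKBP5 and 1.56% with a negative slope for DDIT4. NR3C1 rose with ST13 (0.448) and HSPA4 (0.301), or 9.52% of the list, below the 12.1% of all probe sets. The mean z score of the list passed with SGK1 (r = -0.495, rho = -0.435, adjusted p = 0.00062) and DDIT4 (r = -0.424, rho = -0.387, adjusted p = 0.0034), and 18.5% of all probe sets passed with that score. With the intensities as deposited these values were -0.0754 and 0.0283. With KLF9 the score did not pass (r = 0.234, adjusted p = 0.13), and its r was 0.00854 in the 24 animals. Of the receptor's cofactors, 7 of 14 genes were tested. NCOA4 (0.494) and NCOA2 (0.407) rose with NR3C1, or 14.3% of the probe sets, near the 12.1% of all. NCOA1 (0.42) rose and HDAC3 (-0.372) fell with FKBP5, or 7.14% and 14.3% of the probe sets, beside 4.48% and 3.61% of all. KLF9 rose with 28.6% of the list and fell with 21.4%, beside 22.1% and 23.3% of all. For SGK1 the shares were 21.4% and 14.3%, beside 9.72% and 13.5%. For CEBPB they were 21.4% and 7.14%, beside 15.2% and 19.5%, and for CEBPD 0.0% and 7.14%, beside 11.9% and 12.2%. No gene of the 10 passed with the cofactor score, with which 6.16% of all probe sets did.

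**Figure D4:**
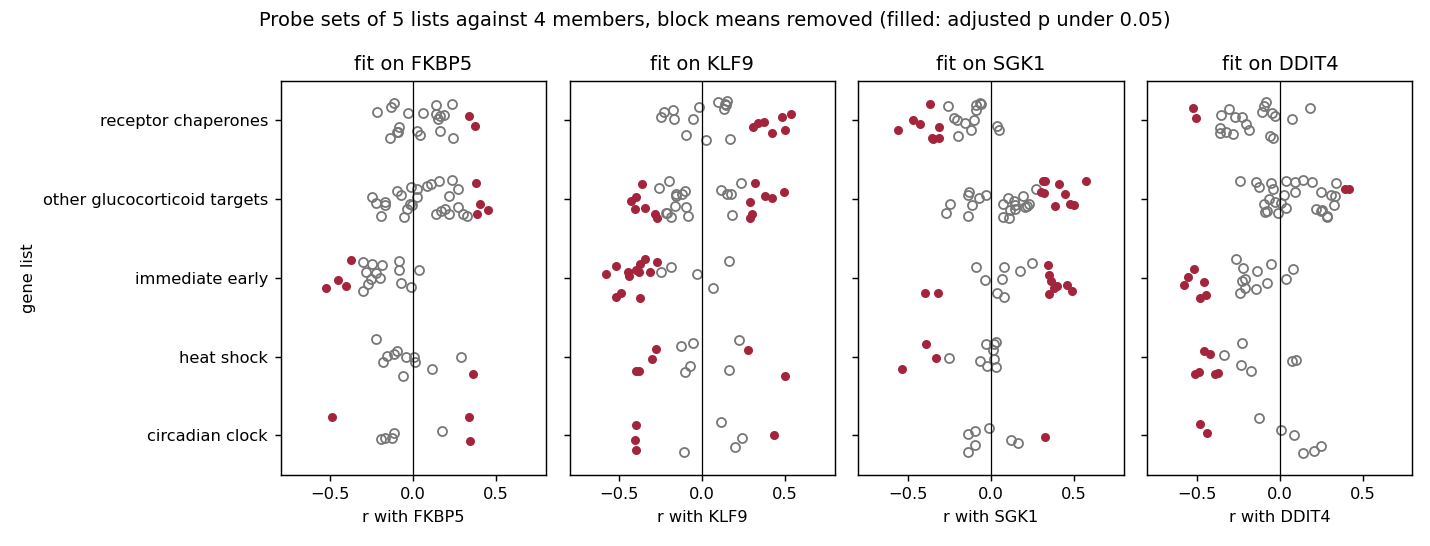
Each point is a probe set of the list named at the left, placed by its r with FKBP5, KLF9, SGK1 or DDIT4 over the 74 animals with block means removed, and filled where the adjusted p was under 0.05. Immediate early genes that passed lie to the left for FKBP5, KLF9 (1 of 13 turns positive with the intensities as deposited) and DDIT4, and the chaperones that passed, 7 and 8 of 21, to the right for KLF9 and to the left for SGK1. Of all probe sets 3.61%, 23.3% and 1.56% passed to the left for FKBP5, KLF9 and DDIT4. For KLF9 22.1% passed to the right, and for SGK1 13.5% to the left.

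Immediate early genes, which respond within minutes to many stimuli, ran against several of the targets. Of 18 probe sets of 14 genes, 13 fell and 0 rose with KLF9 (1 of the 13 was positive with the intensities as deposited), led by NR4A2 (-0.582), JUN (-0.522) and IER2 (-0.519). With FKBP5 4 fell and 0 rose, those of NR4A2 (-0.526), JUN (-0.455), IER5 (-0.407) and ATF3 (-0.374). With DDIT4 6 fell and 0 rose, led by BTG2 (-0.578), IER5 (-0.555) and MYC (-0.521). SGK1 went the other way, with 8 that rose, led by EGR1 (0.489), and 2 that fell, both of NR4A3 (-0.396 and -0.318). CEBPD rose with 6, led by MYC (0.51). The list's score passed with KLF9 (r = -0.519, rho = -0.447, adjusted p = 0.00026), DDIT4 (r = -0.42, rho = -0.43, adjusted p = 0.0058) and FKBP5 (r = -0.378, rho = -0.285, adjusted p = 0.016), beside 11.4% of all probe sets. For FKBP5 r was -0.293 without the 2 animals farthest from its median, and with the intensities as deposited the 3 values were -0.0537, -0.317 and -0.0516. For DDIT4 r was -0.167 in the 24 animals and -0.516 in the 50.

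Heat shock genes (12 probe sets of 9 genes) fell with DDIT4 in 6 cases and rose in 0, led by DNAJB4 (-0.513), HSPH1 (-0.489) and BAG3 (-0.457). With CEBPB 7 rose, led by HSF1 (0.547) and HSPB1 (0.54), and HSPD1 fell (-0.406), with a positive r in the intensities as deposited. The inducible HSP70 genes HSPA1A and HSPA1B had no probe set by name. The score passed with DDIT4 (r = -0.563, rho = -0.503, adjusted p = 2.1e-05) and CEBPB (r = 0.36, rho = 0.365, adjusted p = 0.038), beside 5.66% of all probe sets. Within the blocks the DDIT4 value was -0.55 and -0.569.

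Of the circadian clock list 8 probe sets of 7 genes were tested, and 12.0% of all probe sets passed with its score. Of the 10 genes CEBPB alone passed with it (r = 0.535, rho = 0.531, adjusted p = 0.00077), and singly PER1 (0.458) and CRY2 (0.441) rose with it. DBP, a clock output gene, fell with FKBP5 (-0.49) and KLF9 (-0.408), and CRY2 (0.34) and ARNTL (0.334) rose with FKBP5. RORA rose with NR3C1 (0.495, with 0.744 in the 24 animals and 0.298 in the 50) and KLF9 (0.433). NFIL3 rose with CEBPD (0.573) and PER1 with SGK1 (0.328), each 12.5% of the list, beside 11.9% and 9.72% of all. With DDIT4 2 of the 8 fell, or 25.0% beside 1.56% of all.

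Markers of other cells in the tissue moved with some of the genes, and in whole muscle fewer cells of a type and less RNA per cell cannot be told apart. The leukocyte score, on 8 of 12 markers, rose with CEBPD (r = 0.655, rho = 0.525, adjusted p = 2.4e-08) and SGK1 (0.363) and fell with NR3C1 (-0.401), GLUL (-0.364) and KLF9 (-0.327). With the intensities as deposited these 3 were -0.0102, -0.00774 and 0.114. For NR3C1 r was -0.641 in the 24 animals and -0.266 in the 50, and for GLUL -0.599 and -0.174. All 8 leukocyte probe sets rose with CEBPD, led by ITGB2 (0.619), beside 11.9% of all probe sets. With the score 26.6% of all probe sets passed. Without the 2 animals farthest from the CEBPD median the score's r with CEBPD was 0.589. PTPRC, CD68, CSF1R and CD3E had no probe set among the brighter part. The summed intensity of the 8 ran from 2965 to 11580 in the 24 animals and from 2871 to 12170 in the 50.

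The adipocyte score (9 of 12 markers) passed with HSD11B1 alone (r = 0.446, rho = 0.581, adjusted p = 0.0014), with 0.415 and 0.468 in the blocks and 0.533 without the 2 animals of extreme HSD11B1. All 12 probe sets had a positive r with HSD11B1, from 0.152 to 0.473, though none passed singly. The background was 14.5%, PLIN1, LEP and CIDEC had no bright probe set, and the summed intensity spanned 8296 to 90340 and 6486 to 59110 in the blocks. The endothelium score (8 of 10 markers, sums of 4850 to 8368 and 2681 to 7849, KDR and EMCN absent from the brighter part) passed with SGK1 (r = 0.398, rho = 0.448, adjusted p = 0.016), beside 6.62% of all.

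The fibroblast score (8 of 10 markers, without COL1A1 and PDGFRA, sums of 11970 to 36140 and 13980 to 31320) fell with CEBPB (r = -0.641, rho = -0.572, adjusted p = 1.8e-07) and GLUL (-0.355, with -0.582 and -0.19 in the blocks, but 0.199 with the intensities as deposited) and rose with HSD11B1 (0.285), beside 29.6%. For HSD11B1 it was 0.0458 in the 24 animals and 0.434 in the 50. The smooth muscle score (7 of 8, without MYH11, sums of 33720 to 75910 and 25250 to 53100) passed with none of the 10, beside 18.6%. Its marker CNN1 fell with DDIT4 (-0.372), with 0.141 in the 24 animals and -0.534 in the 50. The erythroid list kept only 2 of its 6 genes and was not scored. What part these cells have in the relations above was not tested.

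Fibre type and muscle content moved with FKBP5, KLF9 and CEBPB. The slow fibre score (8 of 9 markers, without MYL6B, sums of 165800 to 308800 and 77670 to 360000) fell with FKBP5 (r = -0.394, rho = -0.309, adjusted p = 0.019), as did MYH7 (-0.409), TNNT1 (-0.408), MYL2 (-0.403) and TNNI1 (-0.338), beside 5.03% of all probe sets. The fast fibre score (7 of 11, without MYH1, MYH4, PVALB and ACTN3, sums of 189500 to 532400 and 255100 to 465100) rose with CEBPB (r = 0.629, rho = 0.548, adjusted p = 1.7e-07) and fell with FKBP5 (-0.334) and KLF9 (-0.358), beside 45.4%. All 8 fast fibre probe sets rose with CEBPB, beside 15.2% of all. After quantile normalization 2 of the 8 had a negative r, and the score's r was 0.311. The score of general muscle markers (sums of 301400 to 711500 and 335900 to 635300) had 0.602 with CEBPB, -0.348 with FKBP5 and -0.351 with KLF9, beside 43.1%, and 0.223, -0.154 and -0.108 after quantile normalization. With the intensities as deposited, the negative values turned positive, to 0.0657 for FKBP5 with slow fibres, 0.112 and 0.333 for FKBP5 and KLF9 with fast fibres, and 0.265 and 0.52 with general muscle markers.

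The same 3 genes moved with array level before scaling, with which 50.3% of all probe sets passed. CEBPB fell with it (r = -0.542, rho = -0.459, adjusted p = 1e-05), and KLF9 (0.452) and FKBP5 (0.314) rose. The log2 ratio of 3' to 5' signal of the control genes, a sign of RNA integrity, ran from 0.65 to 1.02 in the 24 animals and from 0.58 to 1.23 in the 50. It passed with GLUL alone (r = 0.442, rho = 0.486, adjusted p = 0.017), beside 2.61% of all. The part of both measures in the relations with the fibre and muscle scores was not tested.

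**Figure D5:**
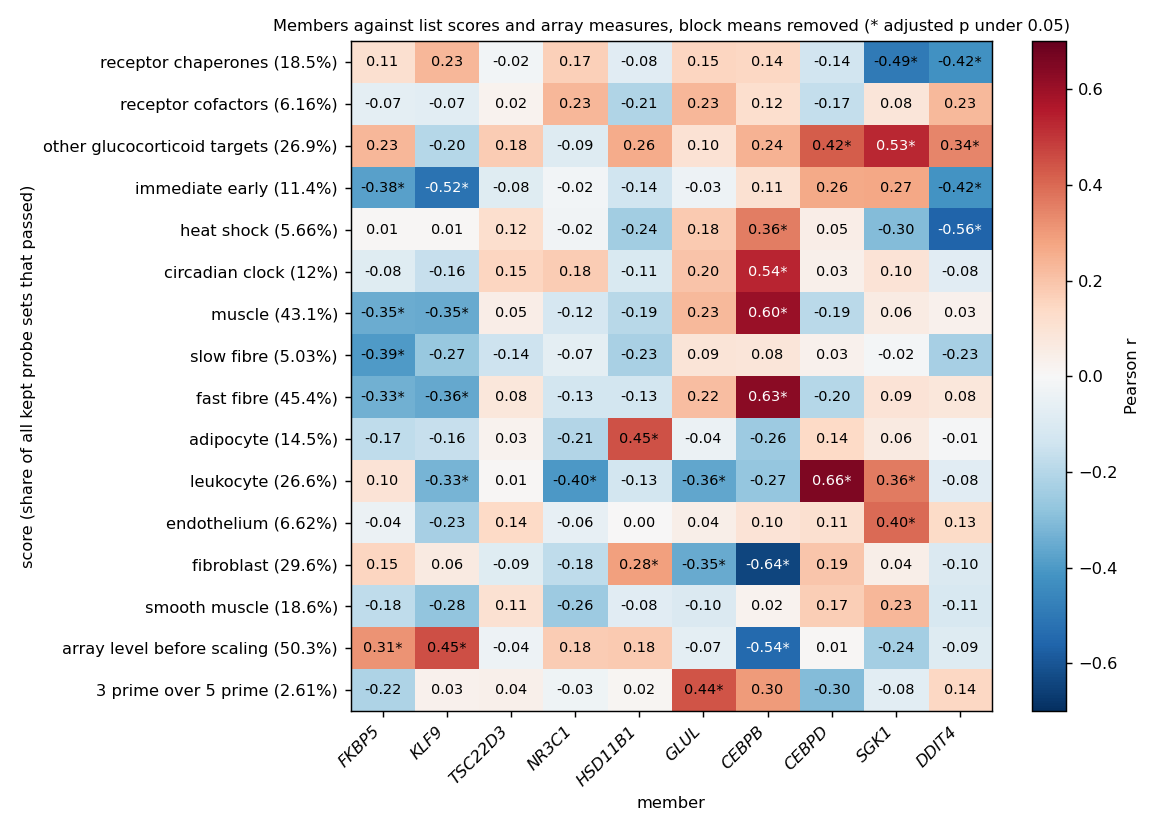
The grid gives Pearson r of each gene with each list score or array measure over the 74 animals with block means removed. A star marks an adjusted p under 0.05, and the percentage behind each name is the share of all tested probe sets that passed with that score. CEBPD with leukocytes (0.655), CEBPB with fast fibres (0.629) and against fibroblasts (-0.641), HSD11B1 with adipocytes (0.446), and DDIT4 against heat shock genes (-0.563) stand out.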

How the data were processed

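The deposited table holds 1 linear intensity per probe set and animal, made by the authors. They hybridised 1 Affymetrix Porcine Genome Array per animal, scaled globally in GCOS 1.1.1 (as in the submitters' processing notes) to a target of 500, used MAS5 present calls and estimated levels with PLIER. Whether MAS5 or PLIER gave the deposited intensity was not given in these sources. The table lists 24123 probe sets, 124 of them controls, and 34 zeros. The annotation, with symbols updated through RefSeq, gives 1 symbol to 10110 of the others, several to 157 and none to 13732.

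Intensities were multiplied so that the mean of each array, computed without its top and bottom 2%, was 500. Values under 1 were set to 1, and log2 was taken. Probe sets in the upper part by median (11999, lowest scaled median 139) were tested, in place of present calls, which are not used here. No member value lay at the floor. The number of arrays limits the precision.

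Each member, block and list score (mean z score, lists of 3 genes or more) was fitted to all tested probe sets with limma 3.58.1 in R 4.3.3, with the label block as covariate except for the block difference. Benjamini-Hochberg adjustment ran over all tested probe sets, with a threshold of 0.05. Single r and rho values were tested with 100000 two-sided permutations within blocks (Python 3.11.15, numpy 2.4.6, scipy 1.17.1), unadjusted. Both were tested on simulated data. Family, sex, carcass weight and slaughter date, the covariates of the study, could not be used, and p-values treat the animals, some of them full sibs, as independent.

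The members, gene lists and tests were chosen with earlier results of these data known. Named genes are the members, for each the 3 highest and the lowest tested probe sets by r, and up to 6 genes a list that passed, by size of r. Alternatives were the deposited and quantile normalized values, log2 of the value plus 16, all probe sets, mean z scores over a gene's probe sets, no block, array level and 3' to 5' ratio as covariates, each block alone, ranks, and leaving out the 2 farthest animals or, added after seeing the data, animals 23 and 26. The probe set of DDIT4 carries 2 gene identifiers of the same symbol.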

Additional observations from a re-analysis of the deposited data

How the results depend on the processing

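The pair of FKBP5 and KLF9 passed under all 12 alternatives, with r from 0.504 to 0.718, while the other 6 pairs that passed each missed the threshold under at least 2 of 12 and none changed sign. FKBP5 and TSC22D3 missed it under 3 (r from 0.273 to 0.63), SGK1 and DDIT4 under 2 (0.328 to 0.558), GLUL and CEBPB under 3 (0.269 to 0.434), KLF9 and SGK1 under 5 (-0.354 to -0.0413), TSC22D3 and CEBPB under 7 (0.194 to 0.398) and SGK1 and CEBPD under 8 (0.207 to 0.45). Counted as calls among the other members, FKBP5 had 2, NR3C1 0, TSC22D3 0 and the other 7 fits together 9. Of all probe sets 8.09%, 22.4%, 0.00834% and 19.3% passed in these fits. With the values as deposited the calls among members were 8, 3, 6 and 26, beside 60.4%, 54.1%, 71.1% and 32.2% of all. All 10 members rather than 5 then differed between blocks, beside 85.8% rather than 61.4% of all probe sets. There the share of positive among passing slopes was 85.9% to 100.0% in the fits, against 40.3% to 55.4% after scaling in the 8 fits with at least 100 calls, and 97.6% rather than 59.6% of the probe sets that differed between blocks were lower in the 24 animals. Of the 28 passing relations with list scores, 8 changed sign with the values as deposited and 0 with quantile normalization. By construction the deposited values keep each array's overall level. Quantile normalization gave 49.7% lower. With all probe sets, including the dim ones, FKBP5 had 1 and the 7 fits 4, beside 2.33% and 8.82% of all. With array level and 3' to 5' ratio as covariates TSC22D3 had 1 and the 7 fits 5, beside 0.383% and 9.97%. With ranks the 7 had 5, beside 13.9%. Without the block term NR3C1 had 1 and TSC22D3 3, beside 29.9% and 26.4%. With the 24 animals alone FKBP5 had 0, NR3C1 1 and the 7 fits 2, beside 0.1%, 26.2% and 5.78%. With the 50 alone FKBP5 had 1 and the 7 fits 3, beside 2.83% and 11.8%. Both rest on fewer samples. The cause of the other changes was not tested. No paired analysis was possible because the animals form 1 group.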
